A study of Homo sapiens with 5 samples.

Results

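The transforming growth factor beta (TGF-beta) and bone morphogenetic protein (BMP) pathway was followed through 51 genes for ligands, receptors, secreted modulators, SMAD proteins and ID proteins. The genes were chosen by symbol from the 46427 genes of the deposited table, and 21 belonged to the TGF-beta and activin arm, 23 to the BMP arm and 7 were shared by both. Total RNA was sequenced from U87 MG, an established cell line of human glioblastoma, in 5 libraries. In the labels, 3 libraries with titles beginning f2n11_csc are cancer stem cells, CD133 positive, sorted from the line. The 2 control libraries, with titles beginning u87_control and numbered 2 and 3, are the line itself with no treatment. The meaning of the code f2n11 is not given, and all libraries come from 1 cell line. The samples include neither sorted CD133-negative cells nor a mock sort, so CD133 status and sorting cannot be told apart. Separate cultures are not stated for the replicates, and p-values then cover only the spread among these samples, which could be technical.

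TGF-beta and activin ligands signal through paired type I and type II serine/threonine kinase receptors to SMAD2 and SMAD3, and BMP ligands through related receptors to SMAD1, SMAD5 and SMAD9. Both groups of SMADs enter the nucleus with the shared partner SMAD4, while SMAD6 and SMAD7 act as inhibitors that their own pathway induces. ID1 to ID4, which block basic helix-loop-helix transcription factors, are textbook targets of BMP signalling, and in glioma BMP ligands are known for driving stem-like cells towards astrocytic fates.

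Depth was 17716823 to 27335199 counts in the sorted libraries, against 29137978 and 29841238 in the controls. Sorted library 3 stood apart. Across 16304 genes, the correlation of its log2(CPM + 1) with sorted libraries 1 and 2 was 0.952 and 0.946, and sorted libraries 1 and 2 correlated with each other at 0.985. The 7SL RNA genes took 24.4% of its counts, against 10.9% and 12.0% in the other sorted libraries and 6.29% and 5.71% in the controls. PROM1, which encodes CD133, had 7, 0 and 0 counts in the sorted libraries and 12 and 0 in the controls, so the transcript does not check the labels. Of the glioma markers, VIM, CD44 and NES were detected in every library, and GFAP had 0, 0 and 12 counts in the sorted libraries and 3 and 1 in the controls. The summed level of 5 macrophage or microglia markers was 242 to 281 CPM in sorted libraries and 104 to 147 CPM in controls, with AIF1 at 0 in every library and PTPRC at 0 to 3 counts. The summed level of 4 epithelial markers was 4.29 to 6.35 CPM in sorted libraries and 1.51 to 2.05 CPM in controls, with CDH1 at 0 in every sorted library. The summed level of 4 neuron markers was 40.2 to 98.5 CPM in sorted libraries and 34.6 to 35.4 CPM in controls, most of it SNAP25, with RBFOX3 and STMN2 at 0, and that of 5 glioma markers 6420 to 10313 CPM and 4209 to 4823 CPM. The part of these differences in the results below was not tested. In bulk samples, more cells of a kind and more RNA per cell cannot be told apart.

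In the sorted cells, SCUBE3, TGFBI, LTBP4, CHRDL1 and ID3 rose and SMAD2 fell. These 6 were the members past an adjusted p of 0.05 in edgeR's quasi-likelihood test, with Benjamini-Hochberg adjustment over all 16304 tested genes. Of the 51 members, 46 passed the filter on low counts, so 5 of 46 (10.9%) were higher and 1 of 46 (2.17%) lower. Among all tested genes 2.20% were higher and 2.40% lower, or 4.61% in either direction, so the share of lower members lay near the background. INHBA and NOG passed the filter through the controls alone, the group where they were high. With DESeq2, 11 members were higher and 6 lower, on a background of 8.77% and 8.16%, and with limma-voom 8 and 3, on a background of 3.78% and 5.35%. All 6 calls stood in both. Beyond them, TGFB3, BMP6, FSTL1, BMP1, ID1 and ID4 were higher and INHBA, TGFBR1, BMPR2, SMAD4 and SMAD7 lower in DESeq2. In limma-voom, BMP6, FSTL1 and ID1 were also higher, and INHBA and SMAD7 lower. On log2(TPM + 0.1), where the median of all tested genes was shifted by -0.94, limma called 1 member higher and 3 lower. The background on that scale was 0.368% higher and 2.72% lower.

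Every sorted library lay above both controls for 17 members (37.0%, against 22.7% of all tested genes) and below both for 11 (23.9%, against 27.7%). The groups overlapped for the other 18. The median log2 fold change was 0.17 over the members, and -0.0017 over all tested genes. Without sorted library 3, edgeR called 15 members higher and 7 lower, on a background of 15.4% and 16.8% of 16038 genes, and all 6 calls stood. Adjusted p-values of single members without sorted library 3, given below, belong to this fit and its larger background. Without sorted library 1, or without either control, edgeR called 0 members and 0 of all genes. At an unadjusted p under 0.05 those settings still held 3741 genes without sorted library 1, 1789 without control library 2 and 1753 without control library 3. Without sorted library 2, 1 of the 6 calls stood, SCUBE3, and no other member was called, with 12 of all genes higher and 7 lower.

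**Figure D1:**
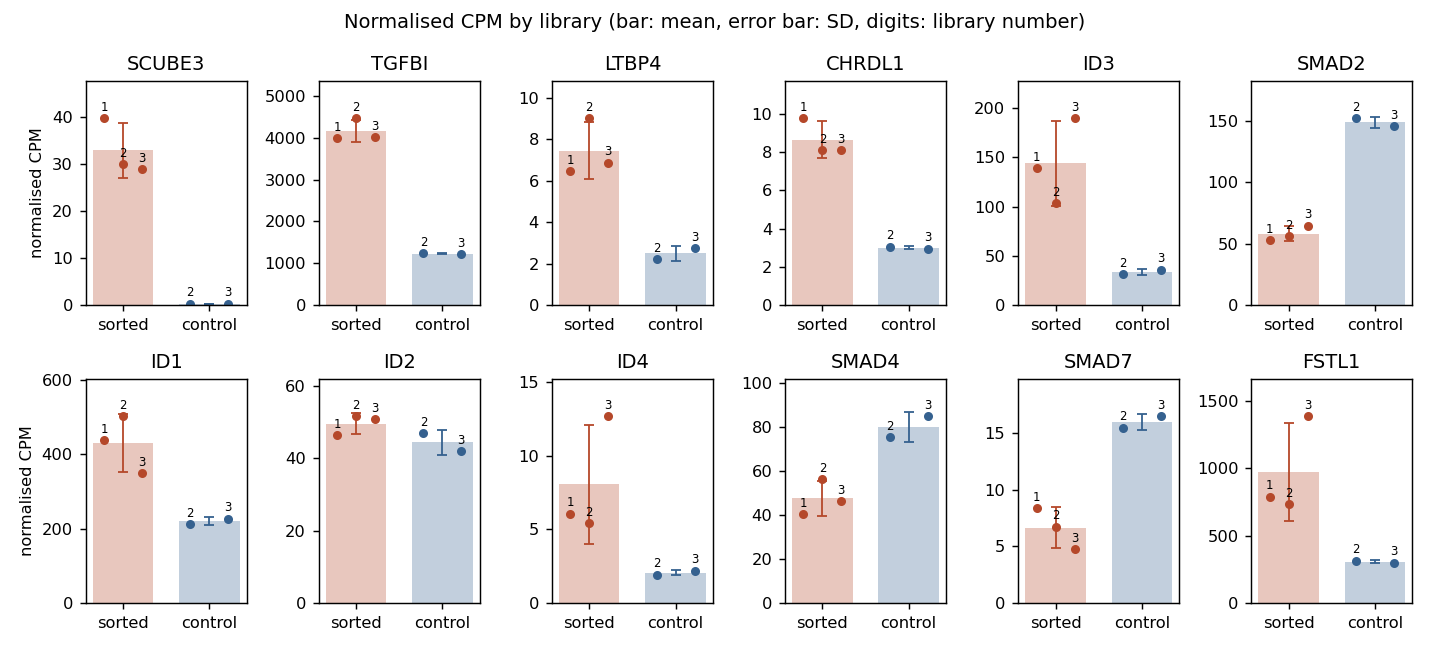
Normalised CPM of 12 members in each sorted and control library, with bars at the group mean, error bars for the SD and digits for the library number. The 6 members in the top row passed the threshold, and in each of them the sorted and control libraries do not overlap. ID2 in the bottom row is the panel where they do.

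The RefSeq promoter windows (250 bases before to 50 after the gene's start, GRCh38.p14) were searched on both strands for 3 sequences known from SMAD binding. These were GGCGCC, a GC-rich SMAD site, GTCTAGAC, the palindrome that SMAD3 and SMAD4 bind, and CAGAC, the SMAD-binding element. Matches of the 3 sequences can share end letters. A window was held for 43 of the 51 members. GGCGCC occurred in 16 of those 43 windows (37.2%), against 29.2% of the 11997 windows of tested genes, and CAGAC in 22 (51.2%), against 43.0%. GTCTAGAC occurred in 1 (2.33%), that of SMAD6, against 0.125%. The 250 bases before the start are shown for 4 members past the threshold and for SMAD6, 5′ to 3′ on the gene's strand, with the motif in capitals. They lie at chr1:23559502-23559751 (ID3, minus strand), chr5:136028738-136028987 (TGFBI, plus), chr19:40592916-40593165 (LTBP4, plus), chr18:47930873-47931122 (SMAD2, minus) and chr15:66701986-66702235 (SMAD6, plus).
ID3: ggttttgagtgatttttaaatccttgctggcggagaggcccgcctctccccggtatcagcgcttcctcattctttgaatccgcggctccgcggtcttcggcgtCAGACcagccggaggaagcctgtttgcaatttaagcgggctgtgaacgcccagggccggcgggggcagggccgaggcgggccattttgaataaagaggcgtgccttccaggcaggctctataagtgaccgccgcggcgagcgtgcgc
TGFBI: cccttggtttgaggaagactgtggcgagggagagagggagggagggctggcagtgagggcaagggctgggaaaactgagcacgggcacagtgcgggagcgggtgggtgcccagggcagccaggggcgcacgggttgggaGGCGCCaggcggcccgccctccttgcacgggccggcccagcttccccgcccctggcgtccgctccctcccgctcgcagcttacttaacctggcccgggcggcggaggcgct
LTBP4: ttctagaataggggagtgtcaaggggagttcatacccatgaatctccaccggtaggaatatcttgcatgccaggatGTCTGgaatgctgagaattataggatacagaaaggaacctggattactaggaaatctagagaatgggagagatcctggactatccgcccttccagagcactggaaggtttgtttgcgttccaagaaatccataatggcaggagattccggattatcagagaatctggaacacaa
SMAD2: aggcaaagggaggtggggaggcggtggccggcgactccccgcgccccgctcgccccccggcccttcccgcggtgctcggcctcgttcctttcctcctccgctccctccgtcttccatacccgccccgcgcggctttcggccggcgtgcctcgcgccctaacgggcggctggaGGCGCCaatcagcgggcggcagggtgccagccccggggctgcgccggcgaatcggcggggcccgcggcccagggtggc
SMAD6: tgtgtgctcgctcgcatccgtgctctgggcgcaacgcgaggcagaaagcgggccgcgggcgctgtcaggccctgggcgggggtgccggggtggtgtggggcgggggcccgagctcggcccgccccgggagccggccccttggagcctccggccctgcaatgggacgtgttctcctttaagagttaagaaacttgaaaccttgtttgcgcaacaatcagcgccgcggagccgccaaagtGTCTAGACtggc
The match began 147 bases before the start in ID3, 174 in LTBP4, 111 in TGFBI, 78 in SMAD2 and 12 in SMAD6. CHRDL1 held CAGAC 1 base before its start, and the windows of ID1 and ID2 held none of the 3 sequences. These matches are descriptions of letters and not binding sites. SCUBE3, SKI, BMP2, BMP7, GDF6, ACVRL1, BMP1 and NOG had no entry.

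In the TGF-beta and activin arm, SCUBE3, LTBP4 and TGFBI rose, SMAD2 fell and the other 16 of 20 tested genes did not pass the threshold in edgeR. That was 15% higher and 5% lower, against 2.20% and 2.40% of all tested genes. DESeq2 called 4 genes of the arm higher and 3 lower, on a background of 8.77% and 8.16%. For limma-voom these were 3 and 2, on a background of 3.78% and 5.35%. The arm's median log2 fold change was 0.19. The largest rise among all members was in SCUBE3 (chr6:35213956-35253079), a secreted glycoprotein that can bind the type II TGF-beta receptor. In sorted libraries 1, 2 and 3, SCUBE3 had 39.6, 29.9 and 28.9 CPM, against 0.356 and 0.329 CPM in control libraries 2 and 3. Counts behind these values were 711, 817 and 382 in the sorted libraries and 12 and 12 in the controls. Each sorted library lay far above each control, and the log2 fold change was 6.56 ± 0.33 (SE), or 94.6-fold (edgeR, adjusted p = 0.00538).

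TGFBI (chr5:136028988-136063818), an extracellular matrix protein first found as a gene that TGF-beta induces, had the highest level per length of the members in every library. TGFBI had 3999, 4461 and 4020 CPM in the sorted libraries, against 1242 and 1219 CPM in the controls. The 3 sorted libraries lay close together, at 4160 ± 261 CPM (SD, n = 3), against 1230 ± 16.2 CPM in the controls (SD, n = 2). The log2 fold change of TGFBI was 1.76 ± 0.25 (edgeR, adjusted p = 0.0251). The TGFBI call was lost with library size alone (edgeR, adjusted p = 0.0530) and on log2(TPM + 0.1) (limma, adjusted p = 0.192). Per length, TGFBI reached 1295 ± 522 TPM in sorted and 698 ± 40.4 TPM in control libraries, with its lowest sorted value, 696 TPM, in library 3, between the 2 controls.

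The latent TGF-beta binding proteins hold latent TGF-beta in the matrix. LTBP4 (chr19:40593166-40629820) had 6.46, 9.01 and 6.88 CPM in the sorted libraries, against 2.23 and 2.77 CPM in the controls. In CPM the groups did not overlap, and the log2 fold change was 1.58 ± 0.32 (edgeR, adjusted p = 0.0497), just under the threshold. Per length they did, at 1.31, 1.75 and 0.625 TPM in the sorted libraries and 0.631 and 0.865 TPM in the controls. The LTBP4 call was lost with library size alone (adjusted p = 0.138) and on log2(TPM + 0.1) (limma, adjusted p = 0.485). LTBP1 was the family's main transcript, at 82.5 ± 4.40% of the 4 genes' summed TPM in sorted libraries and 87.2 ± 2.30% in controls, while LTBP4 took 2.49 ± 0.43% and 0.855 ± 0.281%. LTBP1 averaged 249 ± 18.8 CPM in sorted and 264 ± 55.1 CPM in control libraries. LTBP2 and LTBP3 averaged 34.8 ± 12.8 and 22.7 ± 7.73 CPM across the sorted libraries, against 31.0 ± 0.433 and 14.5 ± 0.322 CPM in controls, and none of these 3 genes passed the threshold.

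No TGF-beta or activin ligand passed the threshold in edgeR, while DESeq2 called TGFB3 higher (adjusted p = 0.00330) and INHBA lower (adjusted p = 0.0144), and limma-voom called INHBA lower (adjusted p = 0.0482). The INHBA calls are for a gene that passed the filter on low counts through the controls alone. TGFB1 had 4.74, 5.05 and 2.87 CPM in the sorted libraries, against 3.12 and 5.67 CPM in the controls, and the groups overlapped. Its log2 fold change was -0.051 ± 0.42 (edgeR, adjusted p = 0.959). TGFB2 had 19.2, 22.1 and 49.9 CPM in the sorted libraries, against 16.4 and 19.4 CPM in the controls, so sorted library 3 was the high one (log2 fold change 0.76 ± 0.45, edgeR, adjusted p = 0.346). TGFB3, singled out after its values were seen, had 9.64, 5.90 and 19.0 CPM in the sorted libraries, against 2.64 and 2.85 CPM in the controls. Its groups did not overlap, with a log2 fold change of 2.06 ± 0.54 (edgeR, adjusted p = 0.0828) and of 1.49 without sorted library 3 (adjusted p = 0.00884). Within the 3 ligands' summed TPM, TGFB3 took 32.1 ± 7.54% in sorted and 14.7 ± 1.84% in control libraries, and TGFB1 took 17.9 ± 9.71% and 29.2 ± 5.57%. The summed TPM was 7.49 ± 0.540 in sorted and 8.44 ± 2.08 in control libraries.

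INHBA, the activin A subunit, was also singled out after its values were seen. INHBA had 0, 9 and 0 counts in the sorted libraries, against 91 and 92 in the controls, through which alone it passed the filter. Its log2 fold change was -4.27 ± 1.24 (edgeR, adjusted p = 0.101), and -3.78 without sorted library 3 (adjusted p = 0.0135). For INHBB each of the 5 libraries had a count of 0, and this allows at most 0.227 CPM in sorted library 3 and 0.0890 CPM in control library 2. The activin antagonists FST and FSTL3 averaged 5.89 ± 1.29 and 3.47 ± 0.880 CPM across the sorted libraries, against 6.08 ± 0.702 and 2.22 ± 0.237 CPM in controls, and did not pass the threshold.

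Among the receptors of this arm, TGFBR1, the type I receptor, had 146, 152 and 106 CPM in the sorted libraries, against 217 and 232 CPM in the controls. Every sorted library lay below both controls, and the log2 fold change was -0.74 ± 0.22 (edgeR, adjusted p = 0.102). TGFBR2, the type II receptor, had 117, 133 and 31.5 CPM in the sorted libraries, against 74.4 and 64.7 CPM in the controls. Sorted libraries 1 and 2 were above both controls and sorted library 3 below both (log2 fold change 0.43 ± 0.57, edgeR, adjusted p = 0.693). Without sorted library 3, TGFBR2 was called higher, at 0.84 (adjusted p = 0.00168), and TGFBR1 lower, at -0.59 (adjusted p = 0.00249). The co-receptor TGFBR3 and the activin receptor ACVR1B averaged 15.5 ± 6.69 and 7.03 ± 3.82 CPM across the sorted libraries, against 9.51 ± 0.198 and 6.15 ± 0.793 CPM in controls, and did not pass the threshold.

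SMAD2 (chr18:47808957-47930872), which carries TGF-beta and activin signals to the nucleus, was the member that fell. SMAD2 had 53.1, 56.2 and 64.8 CPM in the sorted libraries, against 152 and 146 CPM in the controls. The groups were far apart, with a log2 fold change of -1.36 ± 0.18, or 2.56-fold lower (edgeR, adjusted p = 0.0220). Per length, SMAD2 was at 2.36 ± 0.341 TPM in sorted and 14.6 ± 2.32 TPM in control libraries. SMAD3, its close relative, had 32.4, 29.6 and 22.6 CPM in the sorted libraries, against 30.8 and 32.7 CPM in the controls, and the groups overlapped (log2 fold change -0.17 ± 0.22, edgeR, adjusted p = 0.690). The co-repressors SKI and SKIL, which bind SMAD complexes, averaged 4.46 ± 2.84 and 48.7 ± 14.1 CPM across the sorted libraries, against 4.23 ± 2.08 and 67.5 ± 8.49 CPM in controls, and did not pass the threshold.

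**Figure D2:**
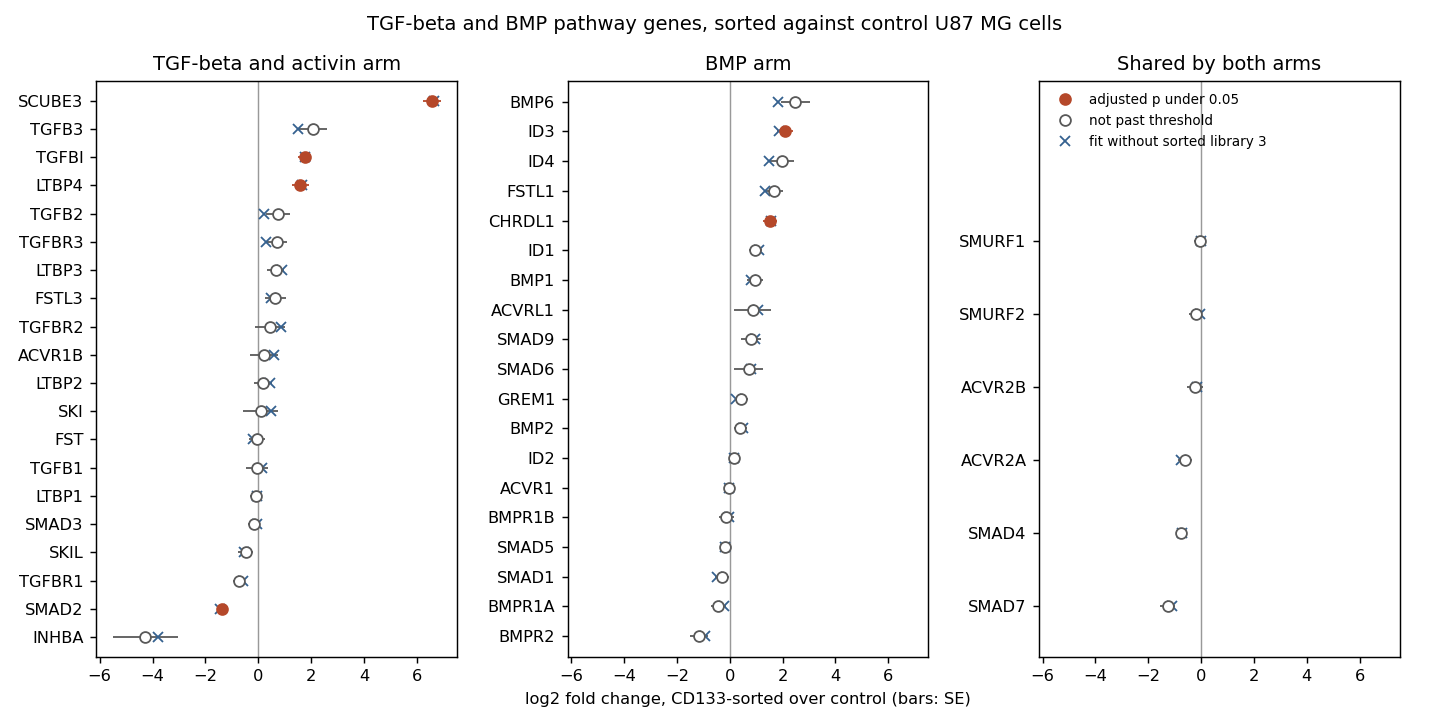
Log2 fold change, sorted over control, of each tested member except NOG, by arm, with bars for the SE, filled circles for the 6 members past the threshold and crosses for the fit without sorted library 3. SCUBE3 stands at 6.56, and the 6 tested members shared by the arms lie at or below -0.057. NOG had 0 counts in every sorted library and is left out.

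In the BMP arm, CHRDL1 and ID3 rose and 18 of 20 tested genes did not pass the threshold in either direction. That was 10% higher, against 2.20% of all tested genes. In this arm 0 genes were called lower by edgeR, 1 by DESeq2 and 0 by limma-voom, on backgrounds of 2.40%, 8.16% and 5.35%. At an unadjusted p under 0.05 in edgeR, 7 genes were higher and 2 lower, against 1997 and 2211 of all 16304 tested genes. The arm's median log2 fold change was 0.58, and every sorted library lay above both controls for 11 of the 20 genes (55.0%, against 22.7% of all tested genes). DESeq2 called 7 BMP-arm members higher, on its background of 8.77%, and limma-voom 5, on 3.78%.

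ID3 (chr1:23557926-23559501) had 139, 104 and 190 CPM in the sorted libraries, against 31.3 and 36.2 CPM in the controls. Each sorted library was above both controls, library 3 being the highest, and the log2 fold change was 2.09 ± 0.31, or 4.27-fold (edgeR, adjusted p = 0.0269). The ID3 call stood with library size alone (edgeR, adjusted p = 0.0432) and was lost on log2(TPM + 0.1) (limma, adjusted p = 0.0994). ID1 had 439, 503 and 350 CPM in the sorted libraries, against 212 and 227 CPM in the controls. In CPM the groups did not overlap, with a log2 fold change of 0.97 ± 0.23 (edgeR, adjusted p = 0.0688), and without sorted library 3 it was 1.10 (adjusted p = 0.000263). Without sorted library 1 or 2 it was 0.95 and 0.85 (edgeR, adjusted p = 0.150 and 0.144). Per length the groups overlapped, at 457, 495 and 165 TPM in the sorted libraries and 300 and 357 TPM in the controls. ID2 had 46.3, 51.6 and 50.7 CPM in the sorted libraries, against 46.8 and 42.0 CPM in the controls. Sorted library 1 lay between the controls, and the log2 fold change was 0.16 ± 0.18 (edgeR, adjusted p = 0.627). ID4 had 6.07, 5.42 and 12.7 CPM in the sorted libraries, against 1.93 and 2.19 CPM in the controls. Its groups did not overlap, with a log2 fold change of 1.96 ± 0.48 (edgeR, adjusted p = 0.0722) and of 1.48 without sorted library 3 (adjusted p = 0.00765).

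The make-up of the ID family differed between the groups, as compared per length. ID1 was the main ID transcript in every library, at 68.8 ± 8.81% of the summed TPM in sorted and 75.2 ± 0.651% in control libraries. ID3 took 24.7 ± 8.39% in sorted and 12.5 ± 0.777% in control libraries, and ID2 took 6.16 ± 0.418% and 12.1 ± 1.44%. For both genes the sorted and control libraries did not overlap in share, and no test was run on the shares. ID4 stayed under 1% in all 5 libraries. The 4 genes summed to 649, 645 and 279 TPM in the sorted libraries, against 402 and 471 TPM in the controls, so the total was low in sorted library 3.

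**Figure D3:**
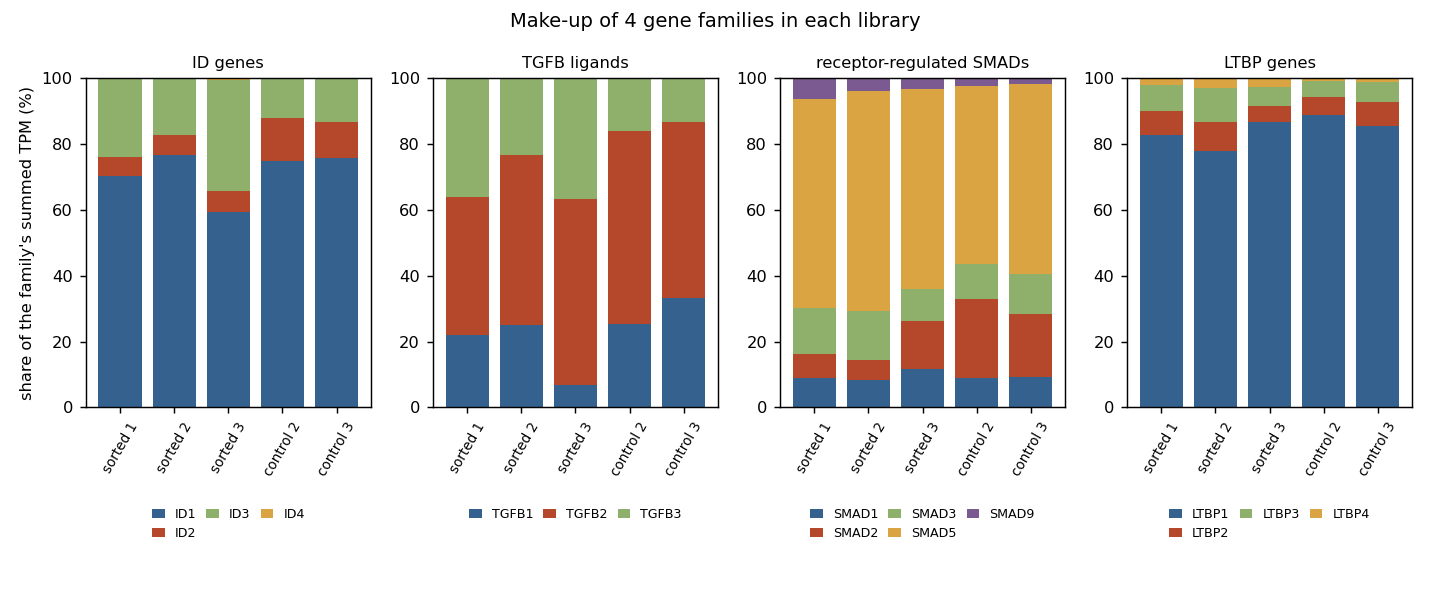
Share of each gene, in percent, in the summed TPM of its family in each library, sorted libraries left and controls right, for the ID genes, the TGFB ligands, the receptor-regulated SMADs and the LTBP genes. ID3 takes 16.9 to 33.6% of the ID total in sorted libraries and 12.0 and 13.1% in controls, and SMAD2 takes 6.15 to 14.6% of its total in sorted libraries and 24.0 and 19.1% in controls.

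Of the BMP ligands, BMP4, which drives astrocytic differentiation in glioma stem-like cells, was at a count of 0 in every library, as was GDF6. BMP7 had 0 counts in each sorted library and 5 and 8 in the controls, too few to be tested. BMP2 averaged 10.2 ± 1.66 CPM in sorted and 7.69 ± 0.458 CPM in control libraries and did not pass the threshold. BMP6, singled out after its values were seen, had 9.58, 11.4 and 28.7 CPM in the sorted libraries, against 2.88 and 3.01 CPM in the controls. Its groups did not overlap, with a log2 fold change of 2.48 ± 0.56 (edgeR, adjusted p = 0.0615). Without sorted library 3 it was 1.84 (adjusted p = 0.00113). BMP6 overlaps TXNDC5, a far more abundant gene with 37855 counts over all libraries against 1071 for BMP6, and TXNDC5 itself had a log2 fold change of 0.47 (edgeR, adjusted p = 0.420). The strand setting of the counting is not given.

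The BMP receptors did not pass the threshold in edgeR, while DESeq2 called BMPR2 lower (adjusted p = 0.0199). BMPR2, the type II receptor, had 17.5, 12.9 and 8.17 CPM in the sorted libraries, against 29.4 and 28.1 CPM in the controls. Every sorted library lay below both controls, with a log2 fold change of -1.16 ± 0.33 (edgeR, adjusted p = 0.0975), and without sorted library 3 it was called lower, at -0.93 (adjusted p = 0.00664). The type I receptors BMPR1A, BMPR1B and ACVR1 averaged 38.1 ± 11.6, 5.21 ± 0.618 and 23.8 ± 0.747 CPM across the sorted libraries, against 51.5 ± 2.11, 5.69 ± 0.726 and 24.1 ± 0.624 CPM in controls. ACVRL1, a type I receptor best known from endothelium, was low in both groups, at 1.02 ± 0.306 CPM in sorted and 0.556 ± 0.0115 CPM in control libraries.

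Among the secreted modulators, CHRDL1 (chrX:110673856-110795817), an antagonist that binds BMP ligands, had 9.75, 8.10 and 8.09 CPM in the sorted libraries, against 3.06 and 2.96 CPM in the controls. In CPM the groups did not overlap, and the log2 fold change was 1.52 ± 0.28 (edgeR, adjusted p = 0.0393). Per length they did, at 2.55, 2.04 and 0.942 TPM in the sorted libraries and 1.13 and 1.18 TPM in the controls. The CHRDL1 call was lost with library size alone (adjusted p = 0.124) and on log2(TPM + 0.1) (limma, adjusted p = 0.510). GREM1, another BMP antagonist, had 339, 292 and 453 CPM in the sorted libraries, against 270 and 263 CPM in the controls. Its sorted values were above both controls, but the log2 fold change was 0.44 ± 0.25 (edgeR, adjusted p = 0.321) and was -0.98 on log2(TPM + 0.1), where it lay within 0.038 of the median shift of all tested genes. NOG, which encodes the antagonist noggin, had 0 counts in each sorted library and 11 and 14 in the controls, at least 2.11-fold lower when each sorted library is set at the floor of 3 counts (edgeR, adjusted p = 0.153). FSTL1, a secreted glycoprotein reported to dampen BMP signalling, had 789, 737 and 1389 CPM in the sorted libraries, against 314 and 299 CPM in the controls. FSTL1 was singled out after its values were seen, and its log2 fold change was 1.66 ± 0.35 (edgeR, adjusted p = 0.0552), or 1.32 without sorted library 3 (adjusted p = 6.53e-05). BMP1, a protease that cleaves the BMP antagonist chordin, averaged 24.0 ± 6.04 CPM in sorted and 12.4 ± 1.13 CPM in control libraries, with a log2 fold change of 0.96 ± 0.29 (edgeR, adjusted p = 0.107).

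The BMP SMADs did not pass the threshold. SMAD5 was the most abundant of the receptor-regulated SMADs per length, at 63.7 ± 3.10% of their summed TPM in sorted and 55.9 ± 2.46% in control libraries, and averaged 153 ± 3.25 CPM in sorted and 174 ± 3.78 CPM in control libraries. SMAD1 and SMAD9 averaged 9.94 ± 2.16 and 8.33 ± 3.04 CPM across the sorted libraries, against 12.2 ± 0.551 and 4.80 ± 1.06 CPM in controls. SMAD6, the inhibitory SMAD of the BMP arm, had 7.69, 5.02 and 5.29 CPM in the sorted libraries, against 5.58 and 1.73 CPM in the controls, and the groups overlapped (log2 fold change 0.72 ± 0.54, edgeR, adjusted p = 0.460).

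All 6 tested members shared by the arms had a negative log2 fold change, with a median of -0.43, and 1 of them, SMURF1, turned positive without sorted library 3, at 0.0077. None passed the threshold in edgeR in either direction. At an unadjusted p under 0.05, 0 were higher and 2 lower, as in DESeq2, and limma-voom called 1 lower. Among all 16304 tested genes, 1997 were higher and 2211 lower at that unadjusted p. The background of lower genes was 8.16% in DESeq2 and 5.35% in limma-voom. SMAD4, the common partner, had 40.6, 56.3 and 46.4 CPM in the sorted libraries, against 75.5 and 85.1 CPM in the controls. Every sorted library lay below both controls (log2 fold change -0.75 ± 0.20, edgeR, adjusted p = 0.0886). SMAD7, the inhibitory SMAD of both arms, had 8.36, 6.74 and 4.76 CPM in the sorted libraries, against 15.5 and 16.5 CPM in the controls. It too lay below both controls in every sorted library, with a log2 fold change of -1.27 ± 0.29 (edgeR, adjusted p = 0.0650). Without sorted library 3, SMAD4 was called lower at -0.73 (adjusted p = 0.0122) and SMAD7 at -1.09 (adjusted p = 0.00493).

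The type II receptors ACVR2A and ACVR2B averaged 7.11 ± 1.37 and 5.10 ± 0.694 CPM across the sorted libraries, against 10.8 ± 0.390 and 6.04 ± 1.41 CPM in controls. ACVR2A overlaps ORC4, which had 5454 counts over all libraries against 1159 and fell (log2 fold change -0.96, edgeR, adjusted p = 0.0365). The ubiquitin ligases SMURF1 and SMURF2, which mark SMADs and receptors for degradation, averaged 22.7 ± 1.83 and 58.2 ± 13.4 CPM across the sorted libraries, against 23.7 ± 2.46 and 67.2 ± 5.18 CPM in controls. BAMBI, a pseudoreceptor, had 0, 0 and 6 counts in the sorted libraries and 24 and 8 in the controls and was not tested.

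SMAD2, SMAD7 and SMAD4 lie near each other on chromosome 18, and tested genes of that chromosome had the lowest median log2 fold change of the autosomes and X. The median of 245 genes was -0.65, and -0.68 without sorted library 3. Of them, 35 fell and 0 rose in edgeR, where 2.40% of all tested genes fell and 2.20% rose. A negative log2 fold change was seen in 79.2% of the 245, against 8168 of all 16304 tested genes. Between the starts of SMAD2 and SMAD4, the 19 other tested genes had a median of -0.41, 13 were negative and 2 fell, SKA1 and ME2. SMAD4 at -0.75 lay near the chromosome's median, and SMAD2 at -1.36 and SMAD7 at -1.27 lay below it. The part of the chromosome's shift in these values was not tested.

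**Figure D4:**
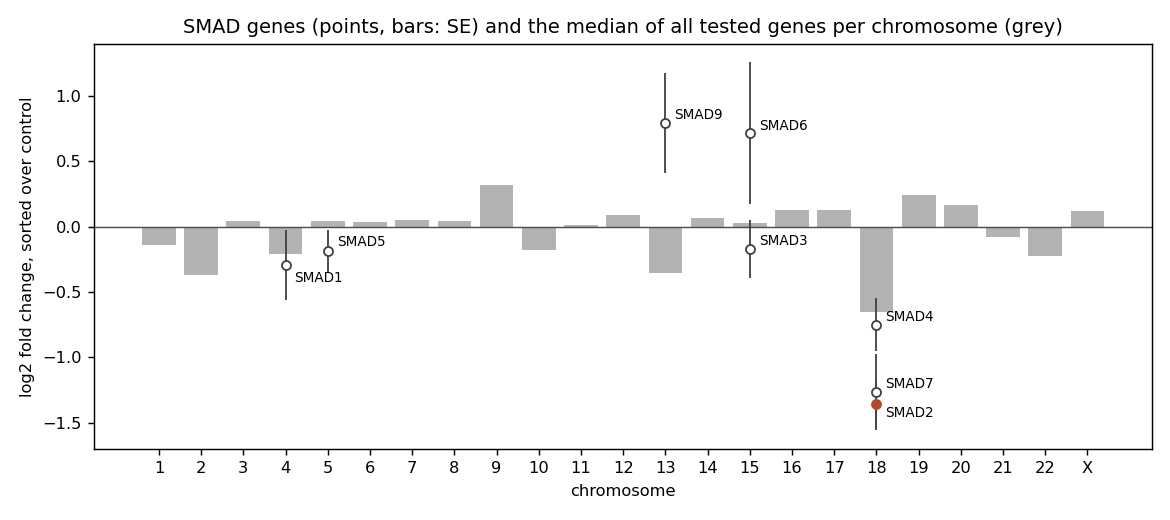
Log2 fold change, sorted over control, of the 8 SMAD genes by chromosome (points, with bars for the SE, the filled point past the threshold) on the median of all tested genes of each chromosome (grey bars). Chromosome 18, with SMAD2, SMAD4 and SMAD7, has the lowest median, at -0.65.

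Other genes of the pathway were followed in 7 lists with 156 genes, of which 102 were tested. Of these, 10 rose (9.8%, against 2.20% of all tested genes) and 4 fell (3.92%, against 2.40%). Of 26 tested TGF-beta target genes, 6 were higher (23.1%, against 2.20% of all tested genes) and 1 lower (3.85%, against 2.40%), and the median log2 fold change was 0.69. The lists were chosen with earlier results of these data known, so their shares are descriptions and not independent support. Every sorted library lay above both controls for 14 of the 26 (53.8%, against 22.7% of all tested genes). FN1, which encodes fibronectin, averaged 8573 ± 1214 CPM in sorted and 1271 ± 109 CPM in control libraries, with a log2 fold change of 2.75 ± 0.30 (edgeR, adjusted p = 0.0158). LIF, a cytokine, was the target that fell, at 49.7 ± 11.04 CPM in sorted and 247 ± 10.9 CPM in control libraries (log2 fold change -2.31 ± 0.24, edgeR, adjusted p = 0.0147). COL1A2, ACTA2, SNAI2 and LOXL2 also rose.

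Of the 14 tested BMP target genes beyond the ID family, 0 passed the threshold in edgeR, with 4 higher and 2 lower at an unadjusted p under 0.05. At that unadjusted p, 1997 of all 16304 tested genes were higher and 2211 lower. In DESeq2, 3 of the 14 were higher and 2 lower, on a background of 8.77% and 8.16%. In limma-voom these were 0 and 2, on a background of 3.78% and 5.35%. The median log2 fold change of the 14 was 0.32. TBX3, among the most abundant of them, had a log2 fold change of 0.36 and did not pass the threshold. A difference between the TGF-beta and BMP target lists was not tested.

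In the list for latent TGF-beta storage and activation, 1 of 15 tested genes rose and 1 fell, with a median of -0.049. That was 6.67% each, against 2.20% and 2.40% of all tested genes. FBN1, whose product fibrillin-1 anchors the latent complexes, averaged 3124 ± 530.3 CPM in sorted and 456 ± 18.5 CPM in control libraries (log2 fold change 2.78 ± 0.28, edgeR, adjusted p = 0.0147). THBS1, which encodes thrombospondin-1, an activator of latent TGF-beta, averaged 4.12 ± 3.29 CPM in sorted and 44.4 ± 2.51 CPM in control libraries (log2 fold change -3.39 ± 0.63, edgeR, adjusted p = 0.0423). Of the other secreted antagonists and modulators, 2 of 8 tested genes rose (25%, against 2.20% of all tested genes) and 0 fell in edgeR, with a median of 0.34. At an unadjusted p under 0.05, 2 were lower, against 2211 of all 16304 tested genes. DESeq2 also called 2 lower, on a background of 8.16%, and limma-voom called 0 lower. HTRA1, a secreted protease, averaged 1176 ± 323 CPM in sorted and 249 ± 7.84 CPM in control libraries (log2 fold change 2.24 ± 0.30, edgeR, adjusted p = 0.0250). NBL1, a BMP antagonist of the DAN family, averaged 49.6 ± 12.1 CPM in sorted and 17.0 ± 2.80 CPM in control libraries (log2 fold change 1.54 ± 0.27, edgeR, adjusted p = 0.0385).

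Among other ligands of the superfamily, 1 of 6 tested genes fell (16.7%, against 2.40% of all tested genes) and the median was 0.10. GDF5, a BMP-type ligand, had 0.836, 1.90 and 1.89 CPM in the sorted libraries, against 11.7 and 16.9 CPM in the controls (log2 fold change -3.21 ± 0.42, edgeR, adjusted p = 0.0241). GDF11 and GDF15, the most abundant, had log2 fold changes of 0.28 and 1.17 and did not pass the threshold. GDF15 had 27.1, 17.7 and 102.6 CPM in the sorted libraries, against 18.1 and 25.6 CPM in the controls, and without sorted library 3 its log2 fold change was 0.032. Of 7 tested other receptors and co-receptors, 0 passed in edgeR, with a median of 0.74. At an unadjusted p under 0.05, 3 were higher and 0 lower, against 1997 and 2211 of all 16304 tested genes. DESeq2 called 2 higher, on a background of 8.77%, and limma-voom 0. NRP1 and NRP2, the most abundant, had log2 fold changes of -0.52 and 0.93. Without sorted library 3 these were -0.19 and 0.50, and NRP2 was called higher (edgeR, adjusted p = 0.00939). Of 26 tested other intracellular regulators, 1 rose and 1 fell (3.85% each, near the background of 2.20% and 2.40%). Every sorted library lay below both controls for 13 of them (50%, against 27.7% of all tested genes), and the median was -0.14. NEDD4L, a ubiquitin ligase that targets SMAD2 and SMAD3 and is itself a chromosome 18 gene, averaged 27.0 ± 2.11 CPM in sorted and 77.2 ± 0.868 CPM in control libraries (log2 fold change -1.52 ± 0.17, edgeR, adjusted p = 0.0169). USP11, a deubiquitinase, averaged 31.2 ± 2.55 CPM in sorted and 12.9 ± 2.37 CPM in control libraries (log2 fold change 1.28 ± 0.23, edgeR, adjusted p = 0.0369).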

How the data were processed

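Total RNA libraries were made with a stranded kit, per the labels' protocols. StringTie and GRCh38 are named in the submitters' processing notes, while aligner and strand setting are not given in the sources used. The authors deposited, per the file headers, estimated counts as whole numbers, FPKM and TPM for each gene and library. edgeR 4.0.16 under R 4.3.3 tested the counts (filterByExpr, TMM, robust quasi-likelihood with no term but group, Benjamini-Hochberg over 16304 genes, threshold 0.05). Reported CPM are TMM-normalised, the SE is the size of the log2 fold change over the root of F, and the floor of 3 counts covers counting error only. TPM were used for levels between genes. FPKM served only to relate counts to lengths. No pair of libraries was a repeat of another, since the lowest chi-square per degree of freedom over genes within a group was 16.6. Gene places came from RefSeq, which matched 44698 of 46427 genes. Alternatives used DESeq2 1.42.0, limma 3.58.1, other scalings and filters, a replicate block and each library left out in turn. The test was checked on simulated counts. Every member past the threshold and a set of core members were given by library. Each list named up to 3 genes past the threshold, or its 2 most abundant where fewer than 2 passed. The members and lists were chosen with earlier results of these data known. Some genes that this rule would name are not reported here.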

Additional observations from a re-analysis of the deposited data

How the results depend on the processing

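The 5 higher and 1 lower members (3 and 1 in the TGF-beta and activin arm, 2 and 0 in the BMP arm, 10 and 4 in the pathway lists) stood within 1.5 times with RLE size factors, with at least 1 CPM in 3 libraries and with protein-coding genes alone. Without a filter on low counts the BMP arm had 4 higher, on a background of 1.93%. DESeq2 called 11 higher and 6 lower members (TGF-beta arm 3 lower, BMP arm 7 and 1, lists 24 and 13), and limma-voom 8 and 3 (TGF-beta arm 2 lower, BMP arm 5 higher, lists 8 lower). Library size alone, which shifted the median of all genes by -0.40, called 3 members higher (TGF-beta arm 1, lists 4). Its background was 0.693% higher and 1.93% lower. On log2(TPM + 1) and log2(TPM + 0.1), 1 member was higher and 3 lower in each (TGF-beta arm 1 and 2, BMP arm 0 and 1). The lists had 3 higher and 9 lower genes at the pseudocount of 1 and 1 higher at 0.1. Backgrounds were 0.601% higher and 9.25% lower at the pseudocount of 1, and 0.368% and 2.72% at 0.1. With each library left out in turn, 0 to 15 members were higher and 0 to 7 lower (TGF-beta arm 0 to 7 and 0 to 3, BMP arm 0 to 8 and 0 to 1, lists 0 to 34 and 0 to 14). The highest counts came without sorted library 3. Where a scaling shifts all genes, a gene's sign can turn while the gene stays above the median of all tested genes. With library size alone this was so for ID2 (-0.24) and GREM1 (-0.0027), both above the shift of -0.40. The TPM scales shifted the median by -0.64 and -0.94. The sign turned on log2(TPM + 1) and log2(TPM + 0.1), in that order, in ID2 (-0.78, -0.80), TGFB2 (-0.27, -0.32), TGFBR2 (-0.75, -0.86), SMAD6 (-0.051, -0.12), GREM1 (-0.95, -0.98) and BMP1 (-0.037, -0.046). Relative to the shift at 0.1, ID2, TGFB2, TGFBR2, SMAD6 and BMP1 were at 0.14, 0.62, 0.075, 0.82 and 0.89, and GREM1 at -0.038. GREM1, at 0.44 in edgeR, was above the median of all tested genes there and just below it on this scale. GREM1 had 1.34 times more counts per FPKM in sorted than in control libraries, with overlapping groups. Of 12782 genes with at least 10 counts in every library, 1.99% had a larger difference. The part of this ratio in the change in GREM1 was not tested. The sign also turned in TGFB1 with limma-voom (0.024), without sorted library 3 (0.16) and without control library 3 (0.43), in a range of -0.43 to 0.43 over the 5 libraries left out. The cause of these turns in TGFB1 was not tested. Only numbers 2 and 3 are shared by the groups, and the labels do not pair them. The difference of library 3 from library 2 in the sorted group correlated with that in the controls at 0.0888 across genes. A fit with the replicate block called 3 members higher and 0 lower (TGF-beta arm 1 and 0, lists 6 higher). SCUBE3 and ID3 stood, BMP6 was added (adjusted p = 0.0338), and TGFBI, LTBP4, CHRDL1 and SMAD2 were lost, at adjusted p = 0.115, 0.118, 0.136 and 0.0647. Of all genes 192 were higher and 219 lower, and it gave TGFBR2 -0.094. Depth limits INHBB, BMP4, GDF6, BMP7, NOG and BAMBI, whose counts were at or near 0.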

Other observations

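Among the cell type markers, NES, an intermediate filament gene of neural stem cells, had 15.2, 12.7 and 15.0 CPM in the sorted libraries, against 4.54 and 4.14 CPM in the controls (log2 fold change 1.72, edgeR, adjusted p = 0.0253). KRT8, an epithelial keratin, had 3.90, 4.62 and 4.92 CPM in the sorted libraries, against 0.208 and 0.246 CPM in the controls (log2 fold change 4.27, edgeR, adjusted p = 0.0152), and made up most of the epithelial list's sum in the sorted libraries. EPCAM was on the lower side, with 0, 8 and 2 counts in the sorted libraries and 38 and 40 in the controls (log2 fold change -2.81, edgeR, adjusted p = 0.203), and CDH1 had 0 counts in each sorted library and 2 and 6 in the controls. KRT8 passed the filter on low counts through the sorted libraries alone, and EPCAM through the controls alone, each the group where it was high. CD68, a lysosomal gene, had 266, 273 and 242 CPM in the sorted libraries, against 141 and 100.1 CPM in the controls (log2 fold change 1.11, edgeR, adjusted p = 0.0479), and made up most of the macrophage list's sum.

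The deposited counts and FPKM did not keep a fixed ratio for every member. For SMAD2, which has 14 transcripts in the deposited table, the log2 of counts per FPKM, centred on the controls, was 0.39, 0.84 and -0.34 in the sorted libraries and -0.21 and 0.21 in the controls. For SMAD4, with 1 transcript, every library lay within 0.021 of 0. LTBP1, with 22 transcripts, was at -0.010, -0.0071 and -0.024 in the sorted libraries. GREM1, with 4, was at 0.70, -0.17 and 0.72 in the sorted libraries and 0.28 and -0.28 in the controls. A relation to the number of transcripts was not tested.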
